A study of Homo sapiens with 8 samples.

Results

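The 47 genes described here encode the antiviral effectors that type I interferon switches on: RNA-binding IFIT proteins, oligoadenylate synthetases, MX GTPases, the ISG15 conjugation system and membrane, nuclear and nucleotide-modifying factors. They were taken by symbol from a list, not by a cut on their values, but the list was chosen with earlier results of these data known. Each gene is read through the probe set with the highest mean over the 8 arrays. All 47 were on the array. IFI27, a small mitochondrial membrane protein, stayed between 4.75 and 4.94 on all arrays and was not tested, which left 46 members among 11449 tested genes. Affymetrix U133 Plus 2.0 arrays were hybridised with RNA from Reh, an established line of human precursor B-cell leukemia that the labels place under non-Hodgkin lymphoma. The 4 groups had 2 arrays each, labelled as biological replicates: CBFA2T3 shRNA together with IKKβ(EE) (called both transfections here), CBFA2T3 shRNA, IKKβ(EE), and control shRNA (mock in the sample titles). CBFA2T3 is a corepressor of transcription, and IKKβ(EE) is an always-active form of the kinase that frees NF-κB. Knockdown and kinase expression were transient, in the 1 cell line, and the labels do not state whether the cells given IKKβ(EE) alone also received a control shRNA. The labels do not say that replicates came from separate cultures, so p-values measure only the spread between these arrays. Whole cultures were lysed, so a change in the share of responding cells and a change per cell cannot be told apart.

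Type I interferons bind a receptor whose kinases activate STAT proteins, and these join IRF9 in a complex that binds the interferon-stimulated response element in the promoters of effector genes. Viral RNA sensors such as RIG-I and MDA5 act upstream of interferon production through NF-κB and IRF proteins, and some effector genes also respond to IRF proteins without interferon. The products bind or degrade viral RNA, block entry or budding, or modify proteins.

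The promoters of the 5 members with the largest changes that held the element are shown because the element is the shared sequence feature of the set. Each is 300 bases of RefSeq sequence (GRCh38.p14), from 250 bases before to 50 after an annotated start, 5′ to 3′ on the gene's strand. Capitals mark matches to the element as GAAA, any 2 bases and GAAA again, or its reverse complement. They lie at chr2:6877527-6877826 (+, RSAD2), chr15:88638766-88639065 (+, ISG20), chr13:42992192-42992491 (-, EPSTI1), chr10:89327747-89328046 (+, IFIT3) and chr10:89392373-89392672 (+, IFIT1).
RSAD2: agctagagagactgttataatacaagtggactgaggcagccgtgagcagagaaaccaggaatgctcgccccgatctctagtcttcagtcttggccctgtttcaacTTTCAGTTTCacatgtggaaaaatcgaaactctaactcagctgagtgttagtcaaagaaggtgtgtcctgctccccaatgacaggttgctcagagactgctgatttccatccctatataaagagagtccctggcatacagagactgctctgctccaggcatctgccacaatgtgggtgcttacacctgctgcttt
ISG20: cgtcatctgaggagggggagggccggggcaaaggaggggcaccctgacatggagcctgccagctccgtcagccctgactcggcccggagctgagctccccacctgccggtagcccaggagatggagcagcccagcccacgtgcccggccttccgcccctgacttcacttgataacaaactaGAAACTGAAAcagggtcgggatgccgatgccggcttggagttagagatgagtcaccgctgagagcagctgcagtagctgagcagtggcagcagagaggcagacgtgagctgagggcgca
EPSTI1: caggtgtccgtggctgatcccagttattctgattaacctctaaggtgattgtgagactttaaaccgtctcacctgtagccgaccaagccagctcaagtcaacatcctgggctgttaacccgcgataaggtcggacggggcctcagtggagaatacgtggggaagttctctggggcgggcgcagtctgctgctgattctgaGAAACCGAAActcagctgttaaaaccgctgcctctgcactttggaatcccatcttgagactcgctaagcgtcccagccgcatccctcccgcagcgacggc
IFIT3: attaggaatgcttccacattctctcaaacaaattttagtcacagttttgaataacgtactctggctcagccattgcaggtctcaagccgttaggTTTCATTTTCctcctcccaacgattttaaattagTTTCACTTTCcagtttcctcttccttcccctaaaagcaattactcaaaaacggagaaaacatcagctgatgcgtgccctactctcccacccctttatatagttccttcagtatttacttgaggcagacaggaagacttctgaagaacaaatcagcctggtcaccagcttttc
IFIT1: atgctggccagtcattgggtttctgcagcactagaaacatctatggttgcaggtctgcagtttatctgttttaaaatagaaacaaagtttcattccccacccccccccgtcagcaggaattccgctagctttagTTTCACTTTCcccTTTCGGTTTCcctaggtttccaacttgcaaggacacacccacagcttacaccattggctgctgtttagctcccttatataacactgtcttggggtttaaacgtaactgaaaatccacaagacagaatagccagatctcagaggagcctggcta

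The IFIT1 and IFIT3 windows each held 2 matches and the other 3 windows held 1. RSAD2 had a second annotated start, upstream of the one shown, whose window held no match. Of the 38 members with a promoter entry, 29 (76.3%) held the letters on either strand in at least 1 window, against 3.57% of 35116 promoters and 4.38% of 27305 genes in the same table. The match did not separate the members by response: it was present in 13 of 19 members that were called higher with both transfections and in 15 of 18 tested members that were not. An NF-κB pattern, GGGA, any 2 bases and TTCC, searched on both strands, was found in 1 member, OAS3, as 2 overlapping matches, against 1.97% of genes. No window was available in that table for APOL6, IFIT2, IFITM2, LY6E, MX2, OAS2, OASL, TRIM22 and USP18. These matches describe letters, not bound sites.

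Array values below are log2 probe set intensities, and changes are differences of log2 group means ± standard error (SE) of the fit. A gene is called when its limma adjusted p, taken over all 24481 tested probe sets, is under 0.05. CBFA2T3 read 8.23 and 7.83 with both transfections, 8.40 and 8.11 with the shRNA, 8.91 and 8.89 with IKKβ(EE) and 9.22 and 9.29 in controls. It was lower by 1.00 ± 0.16 with the shRNA alone (adjusted p = 0.0518, 0.0100 with a block for the replicate number, a fit that takes out a difference shared by equal-numbered arrays) and fell by 1.23 with both (adjusted p = 0.00938). An IKBKB probe set read 11.45 and 11.97 with both transfections and 10.85 and 10.39 with IKKβ(EE), against 4.43 and 3.60 with the shRNA and 3.97 and 4.02 in controls. The other 2 IKBKB probe sets differed by 0.32 and 0.26 with IKKβ(EE) from controls (adjusted p = 0.575 and 0.676). Among 10 B-precursor markers 9 passed the floor, and VPREB1 did not (2.93 to 3.49). Their median with both transfections against controls was -0.33, with 0 called without the block and 2 called lower with it, CD79B and DNTT. Of 6 T and NK cell markers only NKG7 passed, with no array above 5.69. Its means in controls and with IKKβ(EE) alone lay under log2 5, so its differences are given as a description with no test. NKG7 differed from controls by 0.89 with both transfections, 0.92 with the shRNA alone and 0.01 with IKKβ(EE) alone. Both transfections against IKKβ(EE) alone gave 0.88. The summed T and NK level was 129 to 136 with both, 121 to 138 with the shRNA, 108 to 117 with IKKβ(EE) and 109 to 131 in controls. Of the 4 plasmacytoid dendritic cell markers (cells that make type I interferon) 1 passed, and their sum ranged from 66.9 to 85.8 over all arrays. None of 6 myeloid markers passed. Their part in the results below was not tested.

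**Figure D1:**
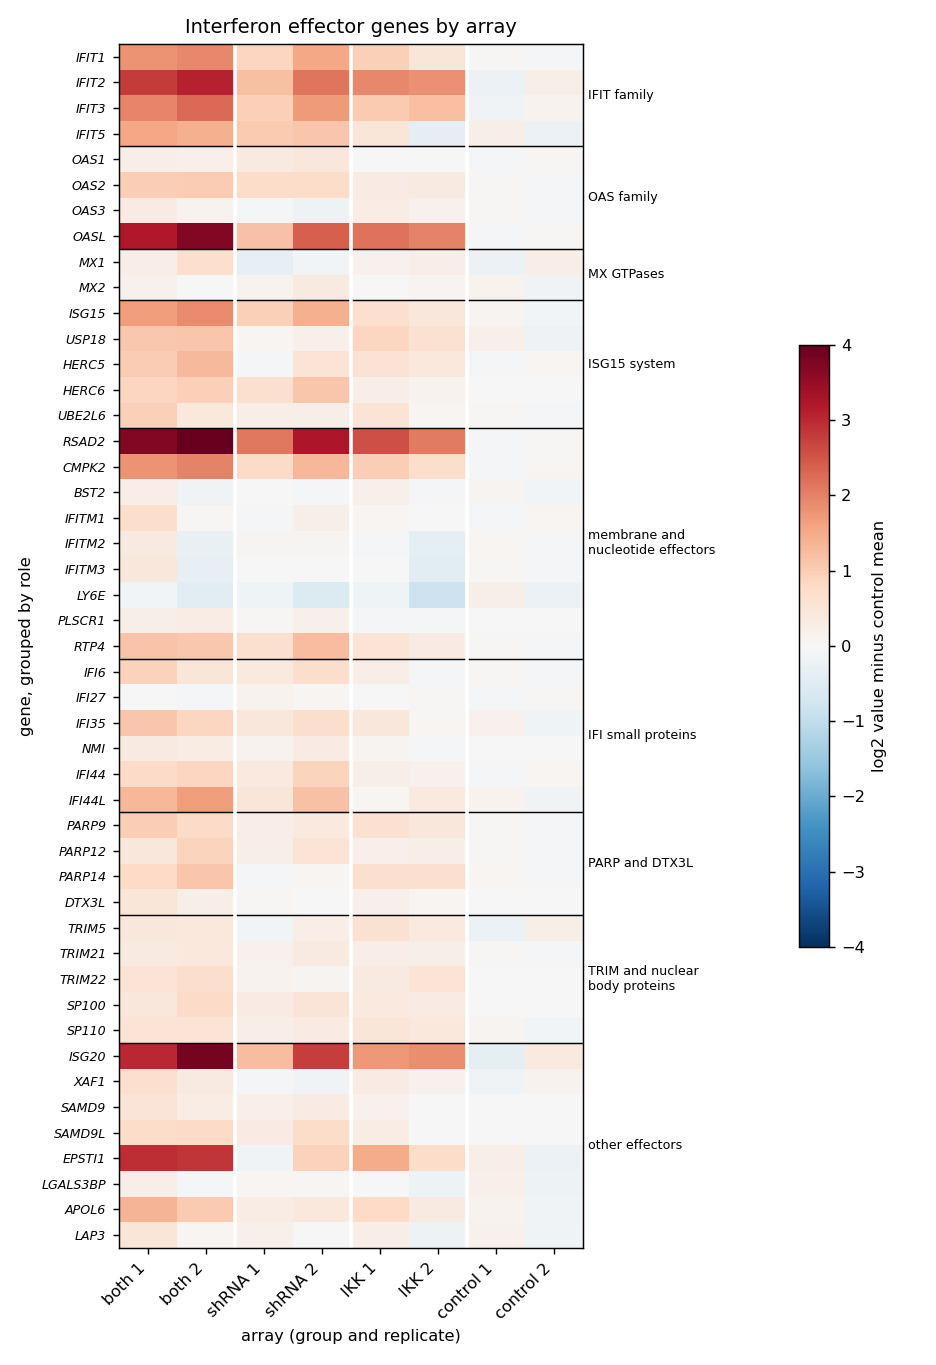
Each cell is 1 gene (47, grouped by role) on 1 array, as its log2 value minus the mean of the 2 control arrays; columns run from both transfections through CBFA2T3 shRNA and IKKβ(EE) to control shRNA. The 2 arrays with both transfections hold the deepest red, in RSAD2, OASL, ISG20, IFIT2 and EPSTI1, while BST2, MX2, OAS1 and the IFITM genes stay pale.

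With both transfections the antiviral set was raised over controls. Of the 46 tested members 25 were called higher and 0 lower, against 4.97% of all tested genes higher and 3.76% lower. At an unadjusted p under 0.05 the counts were 34 and 0, against 13.5% of genes higher and 14.2% lower. The median member was higher by 0.71, where the median of all genes was -0.02, and 45 members were above 0, against 47.0% of genes. LY6E, a membrane protein, was the exception at -0.29. With the replicate block 32 members were called, against 12.5% of genes higher and 11.6% lower. Arrays with both transfections lay wholly above both control arrays for 38 members, against 26.5% of genes. The count depended on single arrays: 6 members were called without control replicate 1, 2 (RSAD2 and IFIT2) without control replicate 2, and 11 without the second array of both transfections.

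The largest changes were in RSAD2, OASL and ISG20. RSAD2 (viperin) is an enzyme that makes a chain-terminating nucleotide. It read 10.60 and 10.91 with both transfections, 9.01 and 10.15 with the CBFA2T3 shRNA, 9.49 and 8.98 with IKKβ(EE) and 6.84 and 6.96 in controls. Every array of the 3 transfected groups was above both controls, and the shRNA and IKKβ(EE) arrays overlapped. The change was 3.85 ± 0.35 (14.4-fold, adjusted p = 0.00269) with both against controls.

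The CBFA2T3 shRNA alone raised 3 members over controls, RSAD2, ISG15 and OAS2, and none was called lower. RSAD2 rose by 2.68 ± 0.35 (6.40-fold, adjusted p = 0.0334), ISG15 by 1.20 ± 0.19 (adjusted p = 0.0482) and OAS2 by 0.73 ± 0.11 (adjusted p = 0.0441). Among all genes 0.376% were called higher and 0.463% lower. RSAD2 and OAS2 have at least 1 other tested probe set, and with the one of highest mean 1 of these 2 calls was kept. With the arrays of the compared groups alone, 2 of the 3 calls were kept. With the replicate block 13 members were called higher, against 4.31% of genes (3.49% lower), and the added genes were IFIT1, IFIT2, IFIT3, IFIT5, OASL, HERC6, CMPK2, RTP4, IFI44 and ISG20. The median member was at 0.30, against 0.02 over all genes, and 40 of 46 were above 0, against 53.8% of genes. At an unadjusted p under 0.05, 21 members were higher and 0 lower, against 8.62% and 7.87% of genes. Both shRNA arrays exceeded both controls for 30 members, against 28.0% of genes.

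The second shRNA array was the stronger: 37 of 46 members were higher on replicate 2 than on replicate 1 of that group, by a median of 0.20, where the median of all genes differed by 0.00. The other groups did not share this shift. Members higher on replicate 2 numbered 10 with IKKβ(EE) (median -0.16), 18 in controls (-0.08) and 22 with both (-0.02). The block takes out a shift shared by equal-numbered arrays, not a shift that differs between groups. The part of the second shRNA array in the result was not tested beyond leaving it out. Without it 0 members were called, with or without the block. Leaving out control replicate 2 also gave 0 in both fits, and control replicate 1 gave 0 without the block and 8 with it. Without the block, leaving out either IKKβ(EE) array, which enter only the shared estimate of spread, gave 0 as well.

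Differences that went with the shRNA in cells given IKKβ(EE) pointed the same way. The IKBKB probe set whose array values are printed above also separated these groups, by 1.09 ± 0.30 without overlap (limma adjusted p = 0.171, 0.0714 with the block). The part of this unequal IKBKB level in the comparison was not tested. Both transfections against IKKβ(EE) alone gave 45 of 46 members above 0, against 53.3% of genes, with a median of 0.36 against 0.02 for all genes. The limma fit called 0 members in either direction, where 0.0961% of genes were called higher and 0.0786% lower. At an unadjusted p under 0.05 limma had 24 members higher and 0 lower, against 7.49% and 6.93% of genes. With the replicate block 13 members were called higher, against 2.51% of genes (2.11% lower). These were IFIT1, IFIT2, IFIT3, IFIT5, OAS2, OASL, ISG15, HERC6, RSAD2, CMPK2, IFI44L, ISG20 and EPSTI1. The blocked count was 0 without the second array of IKKβ(EE) or the second array of both transfections, 3 without the first IKKβ(EE) array, 6 without the first array of both, and 7 without either control. Arrays with both transfections lay wholly above those with IKKβ(EE) for 34 members, against 24.4% of genes.

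IKKβ(EE) alone gave 0 called members against controls in the limma fit, beside 0.280% of genes higher and 0.0175% lower. At an unadjusted p under 0.05 it had 19 members higher and 0 lower, against 5.91% and 4.08% of genes. The median member was at 0.25 and the median gene at -0.04. With the block 7 members were called higher, against 3.17% of genes (0.507% lower): IFIT2, IFIT3, OASL, USP18, RSAD2, PARP14 and ISG20. The blocked count was 0 without control replicate 2, 1 without IKKβ(EE) replicate 1 and 2 without control replicate 1. Arrays with IKKβ(EE) were wholly above controls for 28 members, against 17.9% of genes.

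Adding IKKβ(EE) to the shRNA raised 3 members over the shRNA alone, EPSTI1 by 2.52 ± 0.37 (adjusted p = 0.0316), PARP14 by 0.96 ± 0.15 (adjusted p = 0.0349) and USP18 by 0.95 ± 0.16 (adjusted p = 0.0488). None was called lower, and the shares of all genes were 0.908% higher and 0.0437% lower. The block gave 13 members, against 4.01% of genes (1.55% lower), adding IFIT2, IFIT3, OASL, MX1, HERC5, CMPK2, PARP9, TRIM22, ISG20 and APOL6. The median member was 0.34 and the median gene -0.04, and 28 members were wholly higher with both than with the shRNA, against 20.3% of genes. OAS1 was wholly lower. The count of 3 was 0 without either control, the first shRNA array or the second array of both, and 1 without either IKKβ(EE) array. With the block it was 0 without the second array of both, 1 without the first shRNA array, 6 without the second, and 7 without the first array of both.

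**Figure D2:**
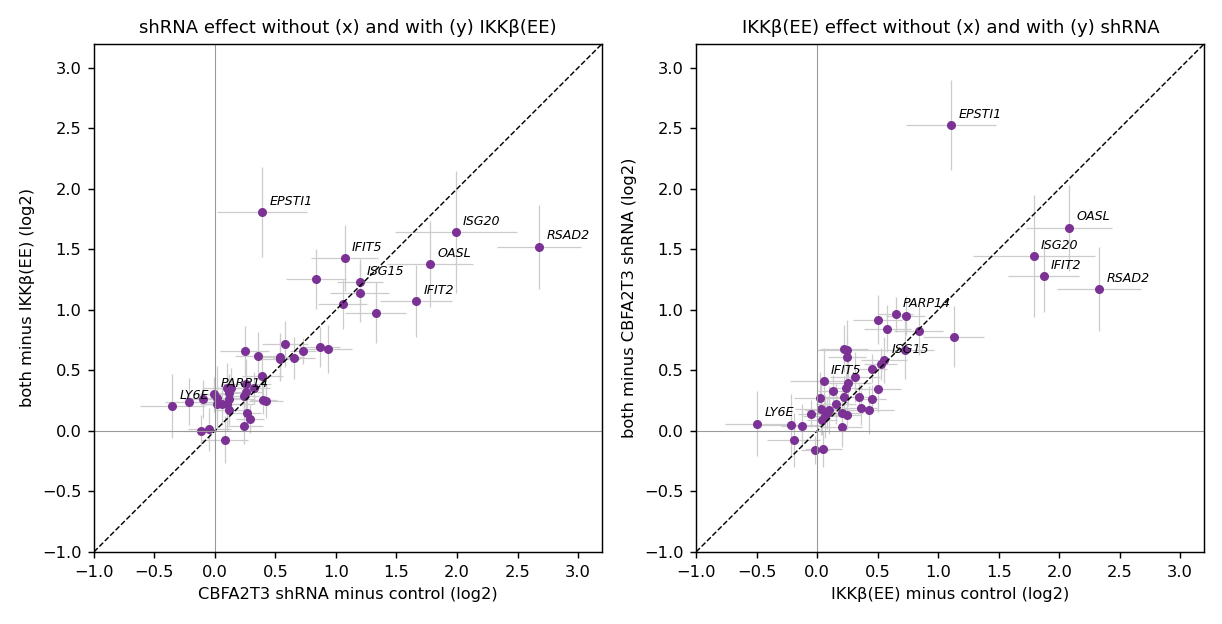
Each point is 1 of 46 tested members, with bars of 1 SE; the left panel sets the log2 shRNA effect with IKKβ(EE) (y) against that without (x), the right panel the IKKβ(EE) effect with the shRNA (y) against that without (x), and the dashed line marks equal effects. In both panels 39 members lie above 0 on both axes, with EPSTI1 farthest above the line and RSAD2 farthest below it.

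Neither effect differed detectably with the other transfection. The interaction, which is the change with both minus the sum of the single changes, was called for 0 members with or without the block, against 0.0175% of genes higher and 0% lower in either fit. At an unadjusted p under 0.05 limma had 1 member higher and 1 lower without the block, against 1.16% and 0.742% of genes. Its median was 0.06. It ranged from -1.16 in RSAD2 (95% interval -2.30 to -0.01) to 1.42 in EPSTI1 (0.19 to 2.64). These intervals are not adjusted for the number of genes and neither reaches 0, so such differences between the effects were not excluded. Outside the group with both transfections EPSTI1 read 3.87 to 5.60, near or under the floor, so its interaction is uncertain. Across the 46 members, the shRNA effects without and with IKKβ(EE) correlated at r = 0.815 (Spearman 0.819), and those of all genes at 0.713. For the IKKβ(EE) effects without and with the shRNA the values were 0.794 (Spearman 0.857) and 0.820. These describe genes of the same 8 arrays, which are not independent, and each pair of effects was computed on arrays the other did not use. The same IKBKB probe set had an interaction of 1.07 (95% interval 0.09 to 2.05). Its part in the interactions and correlations of the members was not tested. Both shRNA effects were above 0 for 39 members, against 41.3% of genes, and both IKKβ(EE) effects for 39 members, against 30.3% of genes.

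The IFIT family moved as a whole. IFIT proteins bind viral RNA ends and stop their translation, with IFIT1 holding capped RNA that lacks ribose methylation. All 4 rose with both transfections, by 1.48 to 2.94. IFIT2 read 11.63 and 11.92 with both transfections, 10.03 and 10.97 with the shRNA, 10.75 and 10.66 with IKKβ(EE) and 8.61 and 9.06 in controls. IFIT3 read 12.20 and 12.52 with both, 11.21 and 11.96 with the shRNA, 11.31 and 11.45 with IKKβ(EE) and 10.10 and 10.41 in controls. In both genes the 2 single transfections overlapped, lay above controls and lay below both. Their changes with both were 2.94 ± 0.30 (adjusted p = 0.00421) and 2.11 ± 0.25 (adjusted p = 0.00676).

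IFIT1, with 2 matches in the promoter printed above, read 10.79 and 10.93 with both, 9.84 and 10.54 with the shRNA, 9.95 and 9.49 with IKKβ(EE) and 9.03 and 8.96 in controls. The arrays of the 2 single transfections overlapped each other and lay between controls and both, and the change with both was 1.87 ± 0.24 (adjusted p = 0.00853). IFIT5 read 8.63 and 8.48 with both, 8.11 and 8.17 with the shRNA, 7.54 and 6.70 with IKKβ(EE) and 7.32 and 6.82 in controls. Here IKKβ(EE) overlapped controls and both shRNA-containing groups lay above them. The change with both was 1.48 ± 0.27 (adjusted p = 0.0246) and with IKKβ(EE) alone 0.05 ± 0.27 (adjusted p = 0.957). In the block fit, the shRNA alone raised all 4 IFIT genes, IFIT5 by 1.07 (adjusted p = 0.0257, 0.126 without the block). IKKβ(EE) alone raised IFIT2 by 1.87 (adjusted p = 0.00593, 0.0805 without the block) and IFIT3 by 1.13 (adjusted p = 0.0116, 0.180 without).

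**Figure D3:**
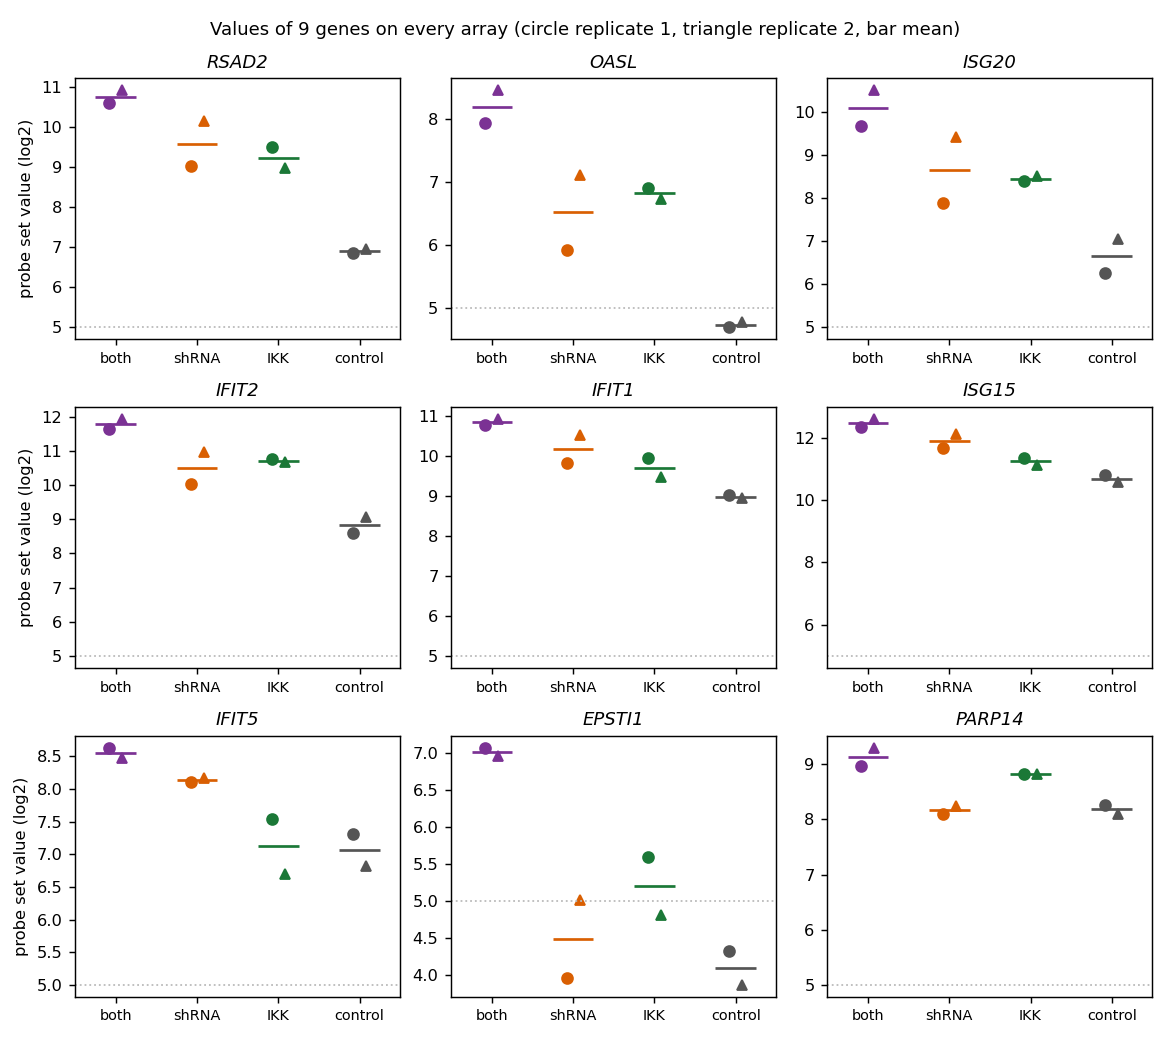
Log2 value of 9 members on every array, with a circle for replicate 1, a triangle for replicate 2, a bar for the group mean and a dotted line at the log2 5 floor; groups run from both transfections on the left to control shRNA on the right and each panel has its own axis. RSAD2, OASL, ISG20 and IFIT2 were high in all 3 transfected groups, IFIT5 was clear of controls only in the 2 groups with the shRNA, PARP14 only in the 2 with IKKβ(EE), and EPSTI1 was above all other arrays with both.

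In the oligoadenylate synthetase family, whose members make the short adenylates that turn on RNase L, 2 of 4 rose with both transfections. OASL, which lacks that enzyme activity and boosts RIG-I signalling, read 7.94 and 8.45 with both, 5.92 and 7.12 with the shRNA, 6.90 and 6.74 with IKKβ(EE) and 4.70 and 4.78 in controls. Controls were under the floor and the other 3 groups above it, so the fold behind the rise of 3.46 ± 0.36 (adjusted p = 0.00436) is uncertain. OAS2 read 7.85 and 7.87 with both, 7.57 and 7.59 with the shRNA, 7.18 and 7.22 with IKKβ(EE) and 6.89 and 6.81 in controls. Its 4 groups were stepped without overlap, with replicates within 0.08 of each other, and the rise with both was 1.01 ± 0.11 (adjusted p = 0.00457). OAS2 has 3 tested probe sets, of which 1 besides the above is given here, at 0.55 (adjusted p = 0.0625).

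OAS1 and OAS3 were not called in any of the 6 planned comparisons. OAS1 read 6.43 and 6.34 with both, 6.50 and 6.59 with the shRNA, 6.12 and 6.14 with IKKβ(EE) and 6.07 and 6.22 in controls, so the 2 groups with the shRNA were above the other 2. OAS3 read 8.44 and 8.24 with both, 8.07 and 7.90 with the shRNA, 8.39 and 8.29 with IKKβ(EE) and 8.15 and 8.06 in controls, so the 2 groups with IKKβ(EE) were above the other 2. The differences with both from controls were 0.24 ± 0.11 (adjusted p = 0.228) and 0.24 ± 0.13 (adjusted p = 0.283).

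The MX GTPases, dynamin-like proteins that trap viral capsids, were not called without the block. MX1 read 6.79 and 7.21 with both, 6.22 and 6.42 with the shRNA, 6.71 and 6.80 with IKKβ(EE) and 6.32 and 6.76 in controls. The control and shRNA arrays overlapped, and both-transfection arrays were above them. With the block MX1 was higher with both than in controls by 0.46 (adjusted p = 0.0319, 0.180 without) and than with the shRNA alone by 0.68 (adjusted p = 0.0264, 0.189 without). MX2 differed from controls by 0.10 ± 0.15 with both (adjusted p = 0.730).

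Of the ISG15 system 4 of 5 genes rose with both transfections, and UBE2L6 was the fifth. ISG15 is a ubiquitin-like modifier, HERC5 its ligase, UBE2L6 its conjugating enzyme, and USP18 removes it and also damps interferon receptor signalling; HERC6 is the main ISG15 ligase in the mouse. ISG15 read 12.35 and 12.59 with both, 11.65 and 12.12 with the shRNA, 11.35 and 11.13 with IKKβ(EE) and 10.80 and 10.58 in controls. The 4 groups did not overlap, and the change with both was 1.78 ± 0.19 (adjusted p = 0.00460). With IKKβ(EE) alone it was 0.55 ± 0.19 (adjusted p = 0.410).

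USP18 read 8.51 and 8.54 with both, 7.50 and 7.64 with the shRNA, 8.29 and 8.04 with IKKβ(EE) and 7.62 and 7.25 in controls. Both groups with IKKβ(EE) were above both groups without it. The change was 1.09 ± 0.16 with both (adjusted p = 0.0128), 0.73 ± 0.16 with IKKβ(EE) alone (adjusted p = 0.172, 0.0404 with the block) and 0.14 ± 0.16 with the shRNA alone (adjusted p = 0.745). HERC6 read 7.75 and 7.85 with both, 7.52 and 8.0 with the shRNA, 7.15 and 7.05 with IKKβ(EE) and 6.91 and 6.87 in controls. The 2 groups with the shRNA overlapped each other above the rest, and it rose by 0.90 ± 0.17 with both (adjusted p = 0.0233).

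HERC5 read 11.28 and 11.57 with both, 10.22 and 10.80 with the shRNA, 10.84 and 10.69 with IKKβ(EE) and 10.20 and 10.33 in controls, and rose by 1.16 ± 0.20 with both (adjusted p = 0.0205). Both-transfection arrays stood above all others. UBE2L6 read 11.83 and 11.29 with both, 11.12 and 11.11 with the shRNA, 11.40 and 10.95 with IKKβ(EE) and 10.91 and 10.80 in controls. Arrays with both and with IKKβ(EE) overlapped, and the change of 0.70 ± 0.21 with both was called only with the block (adjusted p = 0.0153, 0.0823 without).

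Among 9 membrane and nucleotide effectors, RSAD2, CMPK2 and RTP4 rose with both transfections and 6 did not pass. CMPK2, a mitochondrial nucleotide kinase encoded next to RSAD2, read 11.53 and 11.71 with both, 10.51 and 11.08 with the shRNA, 10.72 and 10.43 with IKKβ(EE) and 9.66 and 9.82 in controls. As in RSAD2, the single transfections overlapped between controls and both. It rose by 1.88 ± 0.20 (adjusted p = 0.00469) and none of its 3 windows held a match to the element. RTP4, a receptor-transporting chaperone, read 9.61 and 9.53 with both, 9.09 and 9.70 with the shRNA, 9.0 and 8.78 with IKKβ(EE) and 8.50 and 8.42 in controls. Its arrays with both fell within the range of the 2 shRNA arrays, and the change with both was 1.11 ± 0.20 (adjusted p = 0.0222).

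The restriction factors of the cell surface and endosome were not called in any comparison. BST2 (tetherin, which holds budding virions) read 9.66 and 9.25 with both, 9.37 and 9.30 with the shRNA, 9.59 and 9.29 with IKKβ(EE) and 9.49 and 9.27 in controls, and all groups overlapped. Its difference with both from controls was 0.07 (95% interval -0.34 to 0.49). IFITM1, IFITM2 and IFITM3, which block membrane fusion, differed from controls by 0.37, 0.03 and 0.06 with both, with intervals that reached 0.87, 0.54 and 0.66. The IFITM2 and IFITM3 probe sets can hybridise to either paralogue, so these values are uncertain. PLSCR1, a phospholipid scramblase, differed from controls by 0.26 ± 0.11 (adjusted p = 0.187). LY6E stood at -0.29 with both and -0.50 with IKKβ(EE) (adjusted p = 0.529 and 0.594), and its replicates differed by up to 0.66.

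Of 5 tested IFI small proteins 3 rose with both. IFI44L read 6.12 and 6.45 with both, 5.28 and 5.96 with the shRNA, 4.87 and 5.19 with IKKβ(EE) and 4.94 and 4.63 in controls. Its related gene IFI44 read 10.61 and 10.71 with both, 10.26 and 10.76 with the shRNA, 10.10 and 10.02 with IKKβ(EE) and 9.78 and 9.93 in controls. The IFI44L controls were under the floor, so its fold is uncertain. IFI44L was above every other array with both, while for IFI44 the shRNA arrays spanned both. They rose by 1.50 ± 0.25 (adjusted p = 0.0184) and 0.81 ± 0.17 (adjusted p = 0.0341).

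IFI35 read 9.29 and 9.04 with both, 8.64 and 8.91 with the shRNA, 8.64 and 8.27 with IKKβ(EE) and 8.36 and 8.04 in controls, with both above every other array, and rose by 0.97 ± 0.19 (adjusted p = 0.0278). Its binding partner NMI differed from controls by 0.33 ± 0.12 (adjusted p = 0.140). IFI6, a membrane protein that opposes cell death, read 9.76 and 9.32 with both, 9.21 and 9.53 with the shRNA, 9.08 and 8.77 with IKKβ(EE) and 8.91 and 8.74 in controls. The 2 groups with the shRNA overlapped above the rest, and the 0.71 change with both was called only with the block (adjusted p = 0.0270, 0.0669 without).

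Of the ADP-ribosylation genes PARP9 and PARP14 rose with both. PARP9 works in a complex with the ubiquitin ligase DTX3L. It read 9.87 and 9.65 with both, 9.14 and 9.28 with the shRNA, 9.49 and 9.33 with IKKβ(EE) and 8.94 and 8.83 in controls, and rose by 0.88 ± 0.13 (adjusted p = 0.0145). Another PARP9 probe set gave 0.23 (adjusted p = 0.398), and DTX3L differed from controls by 0.35 ± 0.13 (adjusted p = 0.134).

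PARP14, a mono-ADP-ribosyltransferase, read 8.97 and 9.29 with both, 8.09 and 8.25 with the shRNA, 8.83 and 8.83 with IKKβ(EE) and 8.27 and 8.09 in controls. Groups with IKKβ(EE) lay above those without, and shRNA arrays overlapped controls. The change was 0.95 ± 0.15 with both (adjusted p = 0.0147), 0.65 ± 0.15 with IKKβ(EE) alone (adjusted p = 0.185, 0.0478 with the block) and -0.01 ± 0.15 with the shRNA alone. PARP12 read 8.94 and 9.35 with both, 8.70 and 9.02 with the shRNA, 8.66 and 8.72 with IKKβ(EE) and 8.50 and 8.44 in controls. It was called with both only with the block, at 0.67 (adjusted p = 0.0139, 0.0537 without), and its shRNA arrays overlapped those with both.

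Of the 5 TRIM and nuclear body proteins 3 were called. TRIM22, SP100 and SP110 rose with both by 0.63 ± 0.12, 0.61 ± 0.14 and 0.55 ± 0.12 (adjusted p = 0.0263, 0.0413 and 0.0339). TRIM22 read 10.57 and 10.71 with both, 10.15 and 10.11 with the shRNA, 10.38 and 10.56 with IKKβ(EE) and 10.03 and 9.99 in controls, in 4 steps without overlap. SP100 read 8.39 and 8.68 with both, 8.25 and 8.45 with the shRNA, 8.33 and 8.25 with IKKβ(EE) and 7.94 and 7.92 in controls. All transfected SP100 arrays stood above controls. The shRNA arrays overlapped those with IKKβ(EE) and those with both, and arrays with both lay above those with IKKβ(EE). Of the 8 fits that each left out 1 array, without the block, TRIM22 was called in 3, SP100 in 1 and SP110 in 0.

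SP110 read 9.12 and 9.11 with both, 8.81 and 8.90 with the shRNA, 9.04 and 8.99 with IKKβ(EE) and 8.66 and 8.47 in controls, and 4 further SP110 probe sets gave 0.61 to 0.82, all called. TRIM21, a cytosolic antibody receptor, read 7.31 and 7.39 with both, 7.14 and 7.30 with the shRNA, 7.21 and 7.19 with IKKβ(EE) and 7.0 and 6.92 in controls. Its 0.39 change with both was called only with the block (adjusted p = 0.0335, 0.0779 without). TRIM5, which binds retroviral capsids, differed from controls by 0.43 ± 0.19 (adjusted p = 0.200), and its 2 control arrays differed by 0.44.

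Among the 8 remaining effectors ISG20, EPSTI1, APOL6 and SAMD9L rose with both. ISG20, an exonuclease that degrades RNA, read 9.67 and 10.49 with both, 7.87 and 9.41 with the shRNA, 8.38 and 8.50 with IKKβ(EE) and 6.26 and 7.04 in controls. Replicate 2 was the higher in all 4 groups, and no transfected array reached down to the controls. The change with both was 3.43 ± 0.50 (10.8-fold, adjusted p = 0.0128). It was 1.99 with the shRNA alone (adjusted p = 0.122, 0.0105 with the block) and 1.79 with IKKβ(EE) alone (adjusted p = 0.296, 0.0194 with the block).

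EPSTI1, named for its induction where epithelium meets stroma, read 7.07 and 6.96 with both, 3.97 and 5.01 with the shRNA, 5.60 and 4.82 with IKKβ(EE) and 4.33 and 3.87 in controls. It stood clear of the floor only with both transfections, and arrays of the other 3 groups read 3.87 to 5.60. The change with both was 2.92 ± 0.37 against controls (adjusted p = 0.00805), from a control level near background, and 0.39 ± 0.37 with the shRNA alone (adjusted p = 0.674). APOL6, an apolipoprotein L, read 8.49 and 8.18 with both, 7.42 and 7.56 with the shRNA, 7.94 and 7.48 with IKKβ(EE) and 7.26 and 7.01 in controls. Both-transfection arrays were above all others, and the change was 1.20 ± 0.19 (adjusted p = 0.0169).

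SAMD9L read 8.51 and 8.56 with both, 8.12 and 8.52 with the shRNA, 8.09 and 7.79 with IKKβ(EE) and 7.78 and 7.80 in controls, and rose by 0.75 ± 0.17 (adjusted p = 0.0367). Its paralogue SAMD9 read 8.57 and 8.33 with both, 8.24 and 8.36 with the shRNA, 8.22 and 8.03 with IKKβ(EE) and 8.04 and 8.04 in controls. XAF1, a promoter of cell death, read 9.16 and 8.85 with both, 8.44 and 8.36 with the shRNA, 8.82 and 8.67 with IKKβ(EE) and 8.36 and 8.64 in controls. Both were called only with the block, SAMD9 at 0.41 (adjusted p = 0.0475, 0.105 without) and XAF1 at 0.51 (adjusted p = 0.0434, 0.0882 without). LGALS3BP, a secreted glycoprotein, and LAP3, an aminopeptidase, differed from controls by 0.10 ± 0.18 and 0.29 ± 0.21 (adjusted p = 0.761 and 0.420).

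**Figure D4:**
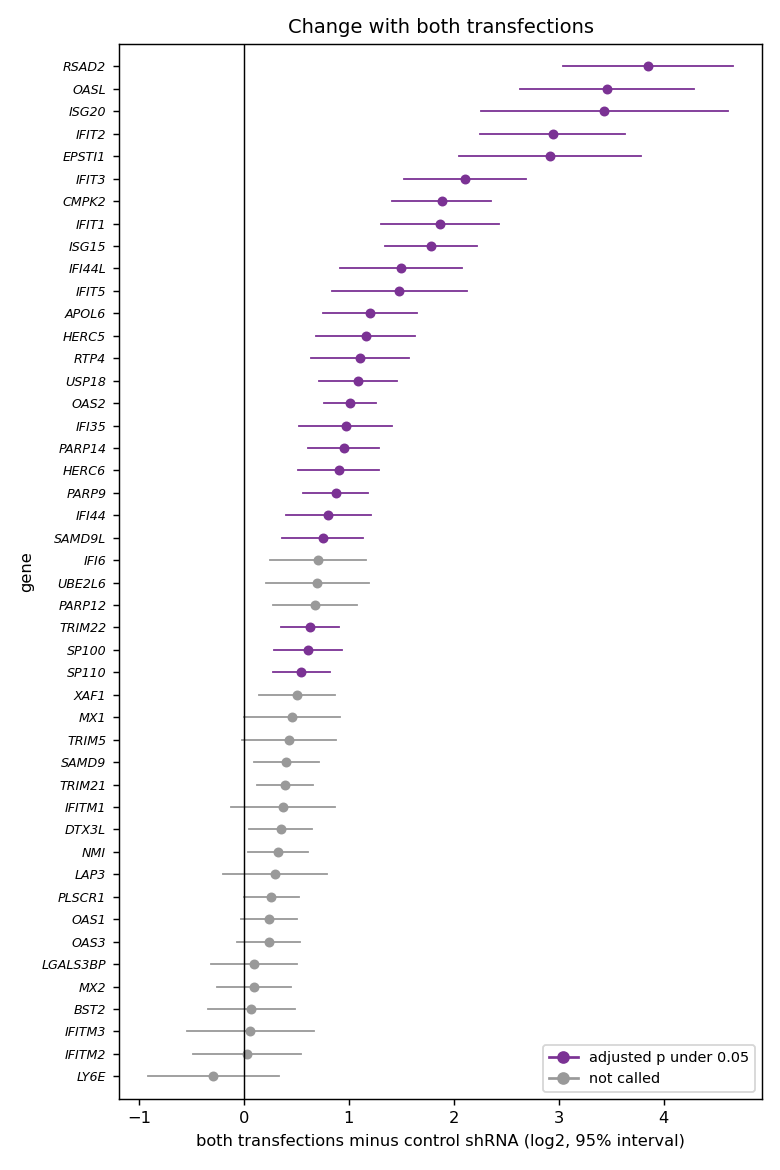
Points are the log2 change with both transfections against control shRNA for the 46 tested members, sorted by size, with bars of the 95% interval; purple marks members with an adjusted p under 0.05. The 25 purple members run from RSAD2 at 3.85 to SP110 at 0.55, and LY6E is the only point below 0.

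The 2 single transfections were set against each other after their values had been seen. The limma fit called 0 members, against 0.943% of genes higher and 2.05% lower. At an unadjusted p under 0.05 it had 8 members higher and 4 lower, against 13.1% and 10.4% of genes. With the block 4 members were called higher with the CBFA2T3 shRNA than with IKKβ(EE), IFIT5 by 1.02, HERC6 by 0.66, OAS1 by 0.42 and OAS2 by 0.38. Another 4 were called lower, PARP14 at -0.66, USP18 at -0.60, MX1 at -0.44 and OAS3 at -0.36. Shares of all genes in that fit were 8.47% higher and 8.05% lower, close to the members' own share of 8.70% each way. Without IKKβ(EE) replicate 2 or shRNA replicate 2 the blocked count was 0, and without IKKβ(EE) replicate 1 it was 1.

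Ligands, signalling genes and sensors of the pathway were read from lists, and the order of their changes and those of the effectors was not tested. The 15 type I interferon genes on the array, IFNB1 and the IFNA genes among them, stayed between 2.27 and 4.09 on every array, below the floor. The type II and III ligands passed it: IFNG read 6.21 and 6.52 with both, 3.78 and 3.25 with the shRNA, 4.95 and 4.98 with IKKβ(EE) and 3.84 and 3.88 in controls. IFNL1 read 6.01 and 6.50 with both, 3.61 and 3.62 with the shRNA, 4.66 and 4.29 with IKKβ(EE) and 3.52 and 4.05 in controls. IFNL2, whose near-identical copies may share its probes, read 7.05 and 8.53 with both, 4.09 and 3.70 with the shRNA, 4.97 and 4.78 with IKKβ(EE) and 3.67 and 3.96 in controls. These ligands stood above log2 5 only with both transfections, the group through which they passed the floor, so their values are given as a description with no test. Whether they had a part in the effector changes was not tested.

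**Figure D5:**
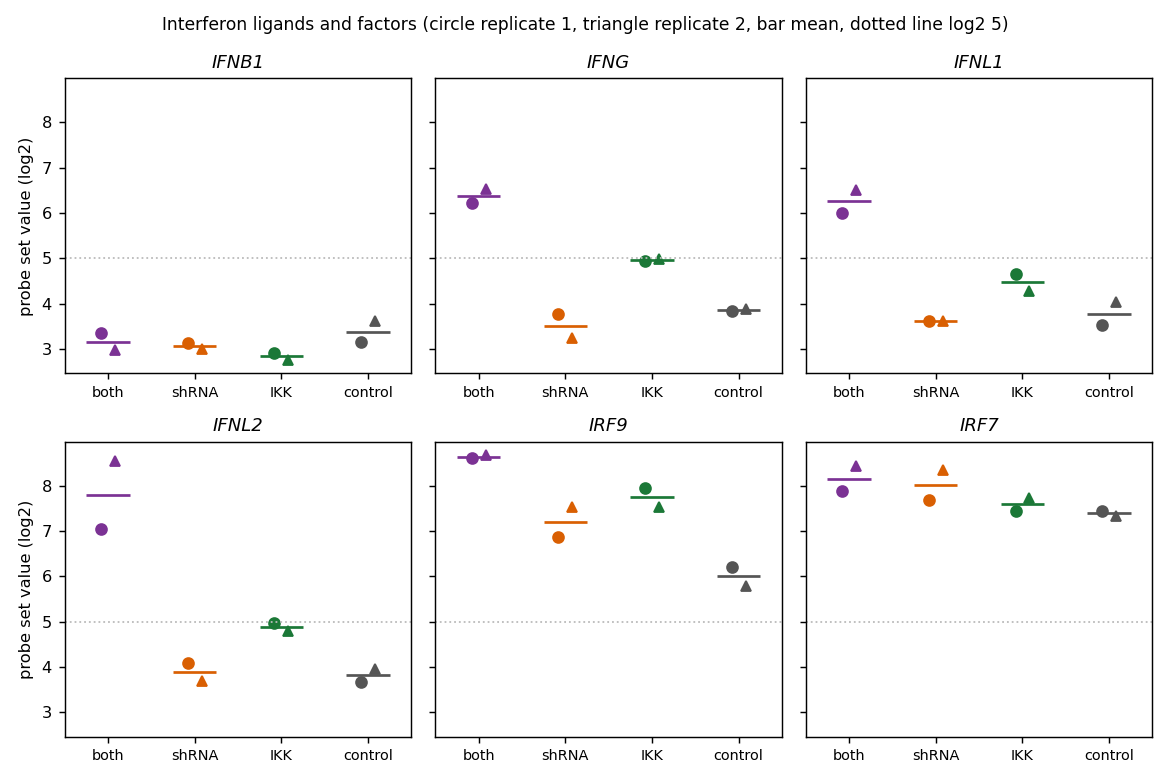
Log2 value on every array of 4 interferon genes and of the factors IRF9 and IRF7, drawn as in the plot of 9 members with a shared axis and the log2 5 floor dotted. IFNB1 lies under the floor in all groups, IFNG, IFNL1 and IFNL2 lie above it with both transfections only, and IRF9 steps up in all 3 transfected groups.

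Of 22 tested receptor, kinase, STAT, IRF, inhibitor and phosphatase genes 5 rose with both (15 with the block) and none was called lower. Their median was 0.48. Of all genes 4.97% were called higher and 3.76% lower (12.5% and 11.6% with the block). IRF9, the DNA-binding partner of the STAT complex, read 8.61 and 8.67 with both, 6.87 and 7.52 with the shRNA, 7.95 and 7.53 with IKKβ(EE) and 6.20 and 5.79 in controls. Its groups did not overlap, and the rise with both was 2.64 ± 0.25 (adjusted p = 0.00317). With the block it also rose with the shRNA alone, by 1.20 (adjusted p = 0.0322, 0.0815 without), and with IKKβ(EE) alone, by 1.74 (adjusted p = 0.0141, 0.0539 without). SOCS1, which inhibits the receptor kinases, rose by 4.0 ± 0.41 with both (adjusted p = 0.00436) and by 3.27 ± 0.41 with IKKβ(EE) alone (adjusted p = 0.0376). Its control arrays read 4.76 and 4.14, under the floor, so these folds are uncertain. IRF8, IRF1 and STAT3 rose with both by 1.59, 0.72 and 0.62 (adjusted p = 0.0457, 0.0197 and 0.0441). Of 15 sensors and adaptors 4 rose with both (4 with the block), against the same shares of genes. The median of the 15 was 0.02, so the list as a whole did not move. The 4 were the RNA sensors IFIH1 (MDA5) by 2.50, DHX58 by 1.67 and RIGI by 1.32, and the adaptor MYD88 by 0.84 (adjusted p = 0.00542, 0.0254, 0.00896 and 0.0343).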

How the data were processed

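Total RNA of 8 Reh samples was labelled with biotin and hybridised to 1 array each, per the labels' protocols. The authors deposited log2 probe set intensities made with RMA, per the submitters' processing notes. Which RMA version, chip definition and genome build were used is not given in the sources used here. Base 2 follows from the maximum of 14.6, which exceeds the natural log of a 16-bit scanner's limit (11.1). RMA sets arrays to a common distribution, and log2 values near background understate folds.

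Of 54675 probe sets, 62 controls and 30132 with fewer than 2 arrays at log2 5 or more were left out. In the platform annotation 41097 probe sets carried 1 symbol, 1801 carried several and 11777 had no symbol. Of 82 member probe sets 71 were tested, no member passed the floor through 1 group alone, and 22 members had several. limma 3.58.1 (R 4.3.3) was fitted to all 24481 tested probe sets with 1 mean per group (4 residual and 3.54 prior degrees of freedom), two-sided, with Benjamini-Hochberg adjustment within each of 6 comparisons and 1 added later. Precision is limited by the number of arrays: the median SE was 0.15, and an exact permutation test of 2 against 2 cannot go below p = 0.333. The fit was tested on simulated data.

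Differences between replicates 2 and 1 correlated at 0.344 to 0.577 over the 6 pairs of groups, so the numbers were taken to pair arrays; the labels do not say what a number marks. Members, lists and tests were chosen with earlier results of these data known. Per-array values are given for each member called without the block and for up to 8 called only with it; others are named at the extremes of their role group. Alternatives covered the floor, normalization, variance moderation, array weights, probe set choice, the block and leaving out each array.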

Additional observations from a re-analysis of the deposited data

Results flagged for a closer look

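PLSCR1 is listed because its arrays with and without IKKβ(EE) did not overlap, in opposite directions with and without the CBFA2T3 shRNA. Neither IKKβ(EE) effect was called, at 0.14 ± 0.11 with the shRNA and -0.05 ± 0.11 without it (limma adjusted p = 0.586 and 0.899). With both transfections PLSCR1 read 10.33 and 10.41, above 10.15 and 10.30 with the shRNA alone. With IKKβ(EE) alone it read 10.07 and 10.05, below 10.09 and 10.13 in controls. The difference between these effects was 0.19 on the log2 scale (95% interval -0.18 to 0.56, limma adjusted p = 1.00 for the interaction), so no difference was detectable.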

How the results depend on the processing

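Counts are members called. The replicate block gave 13 for the shRNA against control, 13 for both against IKKβ(EE), 7 for IKKβ(EE) against control, 13 for both against the shRNA and 8 for the added comparison of the 2 single transfections. For the shRNA against control, trend and robust moderation gave 5 and array weights 7. For IKKβ(EE) against control, no floor gave 1, trend and robust moderation 2, and the arrays of the compared groups alone 3. For both against the shRNA, the compared groups alone gave 0, and so did another probe set of each gene, which 17 members have. The members called there, EPSTI1, PARP14 and USP18, have no other tested probe set, so this 0 does not test their calls. Using another probe set gave 11 for both against control, 1 for both against IKKβ(EE) and 1 for the 2 single transfections. For the last of these, array weights and 1 probe set per gene also gave 1. For both against control, 13 of the 25 called members have another tested probe set, and 11 of those 13 calls were kept. Leaving out 1 array gave, without and with the block, 2 to 23 and 18 to 29 for both against control, 0 to 3 and 0 to 15 for the shRNA, 0 to 1 and 0 to 15 for both against IKKβ(EE), 0 to 3 and 0 to 7 for IKKβ(EE), 0 to 2 and 0 to 11 for both against the shRNA, and 0 to 1 and 0 to 7 for the added comparison. Within those blocked ranges, leaving out the first array of both gave 6 for both against IKKβ(EE), either shRNA array 6 for IKKβ(EE) against control, either control 10 and the second shRNA array 6 for both against the shRNA, and either control or either array of both 6 for the added comparison. The interaction gave 0 under every alternative run. No member called without the block changed direction, in the comparison where it was called, under any alternative run. Members called only with the block were not checked for this. The cause of these shifts was not tested, except that leaving out an array or a group removes degrees of freedom.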
